A study of Mus musculus with 4 samples.

Results

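The genes of sugar handling described here are 39 mouse genes listed by symbol: enzymes of glycolysis, gluconeogenesis and fructose use, carriers of glucose and fructose across the cell membrane, and regulators that respond to glucose. All probes annotated to these symbols were taken. Of the 39 genes, 33 had a named probe and 6 (Gpi1, Pgam1, Eno1, Got1, Sord and Txnip) had none among the named probes used here. The 33 genes had 45 probes, out of 24613 probes and 15967 named genes on the array. A gene was called expressed when the mean of its brightest probe over all libraries reached 5.49 on the log2 scale, the median of all probes, and 30 of the 33 members and 9201 of all genes did. Hk1, Pgk1 and Pck2 lay below that minimum.

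Whole kidneys were compared between C57BL/6 and FVB/N mice, each as a diabetic and a saline-injected control group at 21 days, with mice aged 8 weeks and of both sexes. The groups carried no other treatment or allele in the labels, and the sources used here do not state how diabetes was brought about. The series text names 6 kidneys per group, but there is 1 column of array values per group, called a library below, and the labels do not say whether it holds a pool or 1 kidney. With 1 library per group no difference has a replicate check, no test was run, and every comparison is one of single libraries. In whole tissue, fewer cells of a type and less RNA per cell cannot be told apart.

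The kidney both reclaims and makes glucose. In the early proximal tubule filtered glucose is taken up by the sodium-coupled carrier SGLT2 (Slc5a2), later by SGLT1 (Slc5a1), and leaves the cell through GLUT2 (Slc2a2). The same tubule makes new glucose from lactate and amino acids through Pcx, Pck1, Fbp1 and G6pc and uses little glucose itself, while distal segments rely more on glycolysis. Fructose enters by GLUT5 (Slc2a5) and is phosphorylated by ketohexokinase (Khk). The factor ChREBP (Mlxipl), with its partner Mlx, responds to glucose metabolites and binds carbohydrate response elements, paired E boxes, in genes such as Pklr, Txnip and Arrdc4.

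Promoter windows from 250 bases before to 50 bases after a transcription start, from RefSeq on build GRCm38.p6, were on hand for 37 of the 39 members, as 53 windows. They were searched on both strands for the E box CACGTG and for the paired form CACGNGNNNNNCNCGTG, each arm of which can itself be an E box. The E box was in 7.15% of all 32851 windows and in windows of 8 members: Arrdc4, Khk, Ldha, Mlxipl, Pcx, Pfkfb3, Pfkm and Slc5a1. The paired form was in 0.0457% of all windows and in 1 member window, that of Pklr. Shown here are the windows of Arrdc4, the member at least 1.5-fold higher in both diabetic libraries, of Khk, higher by the same measure in FVB/N on both of its probes, and of Pklr, the member with the paired form. They lie on GRCm38.p6 at chr7:68749189-68749488 on the minus strand, chr5:30921309-30921608 on the plus strand and chr3:89136373-89136672 on the plus strand, and are printed 5′ to 3′ in the direction of the gene, with the matched motif in capitals.
Arrdc4: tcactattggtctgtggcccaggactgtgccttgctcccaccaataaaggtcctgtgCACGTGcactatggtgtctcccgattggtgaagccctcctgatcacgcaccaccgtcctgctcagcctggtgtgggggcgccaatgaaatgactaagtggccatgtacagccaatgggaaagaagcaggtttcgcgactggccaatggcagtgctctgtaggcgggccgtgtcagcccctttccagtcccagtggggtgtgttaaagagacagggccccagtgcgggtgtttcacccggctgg
Khk: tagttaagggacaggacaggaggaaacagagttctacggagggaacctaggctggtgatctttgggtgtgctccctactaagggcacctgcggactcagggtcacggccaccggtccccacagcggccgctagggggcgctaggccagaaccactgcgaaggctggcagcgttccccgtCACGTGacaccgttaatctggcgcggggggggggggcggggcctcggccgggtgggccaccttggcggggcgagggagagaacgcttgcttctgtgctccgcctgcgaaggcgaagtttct
Pklr: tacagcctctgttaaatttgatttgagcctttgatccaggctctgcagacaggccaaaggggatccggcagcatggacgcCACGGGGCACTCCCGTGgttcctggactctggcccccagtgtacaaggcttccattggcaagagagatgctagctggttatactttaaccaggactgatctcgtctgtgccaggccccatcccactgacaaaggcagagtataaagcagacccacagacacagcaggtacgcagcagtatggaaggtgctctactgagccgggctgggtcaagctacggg
The motif begins 193 bases before the start in Arrdc4, 71 bases before it in Khk and 170 bases before it in Pklr. A match describes the letters of these windows and says nothing of binding in these kidneys.

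Values are log2 array intensities, and a difference of 0.585 on this scale is 1.5-fold, the size at which a gene was counted as higher or lower. For scale, 1159 genes with exactly 2 expressed probes gave the spread of a single probe's difference as a standard deviation of 0.33 for diabetic minus control in C57BL/6 and 0.47 in FVB/N. Counting differences of any size, the 2 probes of a gene had opposite signs in 38.5% of these genes in C57BL/6 and 41.4% in FVB/N. The spread compares probes on the same arrays, so it holds no variation between kidneys or arrays. Libraries had near-identical distributions from 4.45 to 15.84. Kidney markers were high in every library: the proximal phosphate carrier Slc34a1 lay between 14.52 and 14.97 and uromodulin, Umod, of the loop of Henle between 12.04 and 12.64. The 3 Y-chromosome genes with a probe, Eif2s3y, Kdm5d and Uty, were below the minimum, so they give no view of the mix of sexes.

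In the FVB/N diabetic library 2 of 5 expressed members of the triose and pyruvate steps, Aldoa and Pkm, were at least 1.5-fold above control, and the median of the 5 was 0.09. At least 1.5-fold higher were 7 of 30 expressed members (Pfkp, Aldoa, Pkm, Ldhb, Mdh1, Khk and Arrdc4), which is 23.3% against a background of 12.4% of all expressed genes. Pfkp reached the expression minimum only through the FVB/N diabetic library, where it is high. Among genes that reach it without any one library, a choice made after seeing the data, 6 of 29 members were higher, against 12.1%. At least 1.5-fold lower were 3 members (Hk2, G6pc and Slc37a4), or 10.0% against 13.9%. After lowess centring on intensity G6pc, at -0.58, and Slc37a4, at -0.56, were short of the threshold. The median member difference was 0.08, and that of all expressed genes was -0.10. In C57BL/6 1 member was higher (Arrdc4), against a background of 6.14%, and 1 lower (Mlxipl), against 6.35%. There the median member difference was -0.14 and that of all expressed genes 0.01. Just short of the threshold in C57BL/6 were Pcx at -0.57 and G6pc at -0.56, next to Mlxipl at -0.61 just past it. In FVB/N Slc2a2 at 0.53 was the nearest member short of it and Khk at 0.71 the nearest past it on the higher side. On the lower side Slc37a4 at -0.63 was just past it and Pfkm and Slc2a5, both at -0.43, were the nearest short of it.

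**Figure D1:**
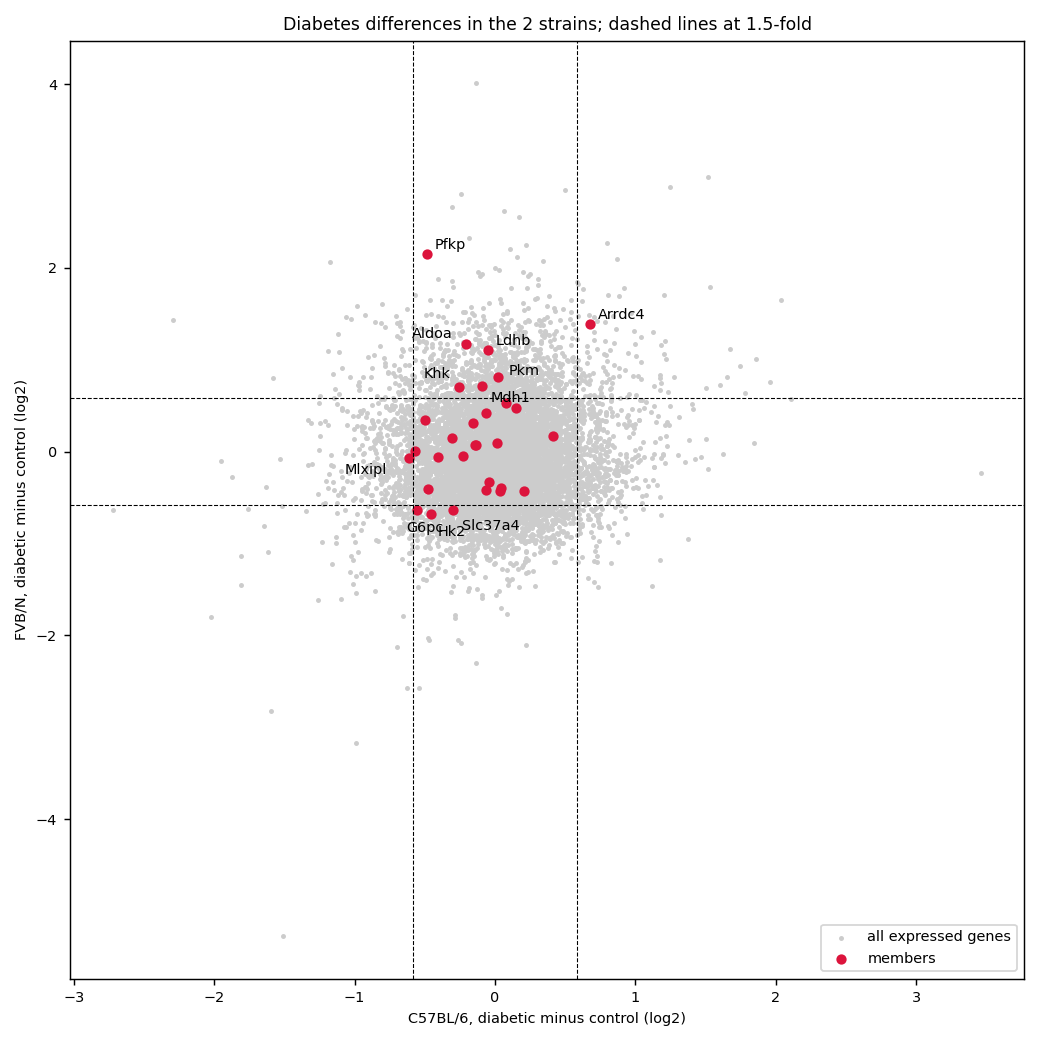
Diabetic minus control difference in log2 for C57BL/6 (x axis) and FVB/N (y axis), 1 library per group; grey points are the 9201 expressed genes, red points the 30 expressed members, and dashed lines mark 1.5-fold. Arrdc4 is the member beyond the lines on the higher side in both strains, and Pfkp at 2.15 has the largest FVB/N difference of the members.

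At the entry of glycolysis, phosphofructokinase isoforms differed from each other. Phosphofructokinase commits fructose 6-phosphate to glycolysis, and Pfkp, Pfkl and Pfkm encode its platelet, liver and muscle forms. Pfkp measured 5.69 in the C57BL/6 control, 5.21 in the C57BL/6 diabetic, 5.27 in the FVB/N control and 7.42 in the FVB/N diabetic library. The FVB/N diabetic library stood alone for Pfkp, at 2.15 log2 above its control. Its FVB/N control value was under the minimum, which leaves the size uncertain: with such values raised to the minimum the difference was 1.93. The mean of the other libraries was 5.39, short of the minimum. The other Pfkp probe, below the minimum on average, had a smaller difference of 0.71, and the mean of both probes gave 1.43. Pfkl, at 10.97, 10.83, 11.03 and 11.11 in C57BL/6 control, C57BL/6 diabetic, FVB/N control and FVB/N diabetic, hardly varied. Pfkm, in the same order, measured 10.88, 10.92, 10.82 and 10.39, with the FVB/N diabetic library lowest. Its difference of -0.43 in FVB/N was within the single-probe spread.

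Hexokinase 2, Hk2, which phosphorylates glucose on entry and is typical of muscle and fat, measured 5.70 and 5.24 in C57BL/6 control and diabetic and 6.54 and 5.86 in FVB/N control and diabetic. Its diabetes differences were -0.46 in C57BL/6, short of 1.5-fold, and -0.68 in FVB/N, and FVB/N minus C57BL/6 was 0.84 in controls and 0.62 in diabetics. The C57BL/6 diabetic value lay below the minimum, and when raised to it the C57BL/6 diabetes difference was -0.22, within the single-probe spread, and the strain difference in diabetics 0.38. Of adipocyte markers, 9 were listed and 6 expressed, and all 6 were at least 1.5-fold lower with diabetes in C57BL/6, against 6.35% of all expressed genes, and 5 of 6 in FVB/N, against 13.9%. The mean log2 level of these 6 was 9.03 and 7.71 in C57BL/6 control and diabetic and 9.17 and 6.82 in FVB/N control and diabetic, and Ucp1 of brown fat was below the minimum, at 4.93, in the FVB/N diabetic library alone. The other 3 listed, Plin1, Fabp4 and Retn, were below the minimum on average. The part of fat in the Hk2 difference was not tested. Pfkfb3, which makes the activator of phosphofructokinase, stayed between 6.02 and 6.44, and its differences of -0.06 in C57BL/6 and 0.42 in FVB/N were within the single-probe spread.

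From the triose steps to pyruvate, aldolase A and pyruvate kinase stood out in the FVB/N diabetic library. Aldoa, which splits fructose 1,6-bisphosphate, measured 12.13 in C57BL/6 control, 11.93 in C57BL/6 diabetic, 12.10 in FVB/N control and 13.27 in FVB/N diabetic. Its FVB/N difference was 1.17, or 2.25-fold, against -0.21 in C57BL/6. Pkm, the pyruvate kinase of most tissues, measured 10.68, 10.70, 10.69 and 11.51 in the same order. The first 3 libraries lay close together and the FVB/N diabetic library 0.82 above its control. Pklr, the liver and red cell pyruvate kinase whose window carries the paired form but no E box CACGTG, measured 6.13, 6.09, 6.39 and 6.05. Its differences of -0.04 and -0.33 were within the single-probe spread.

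On their brightest probes, neighbouring enzymes stood closer to control. Tpi1, which interconverts the trioses, measured 13.99, 13.92, 14.09 and 13.67 on its brightest probe, a difference of -0.42 in FVB/N, while its other probe gave 0.55. Gapdh, often used as a reference gene, measured 14.59, 14.60, 14.59 and 14.68 on its brightest probe. Its other probes gave FVB/N differences of 0.17 and 0.60, and the brightest 0.09. Pgk1, next in the pathway, lay between 5.13 and 5.49, around background, so nothing can be said of it from this probe.

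**Figure D2:**
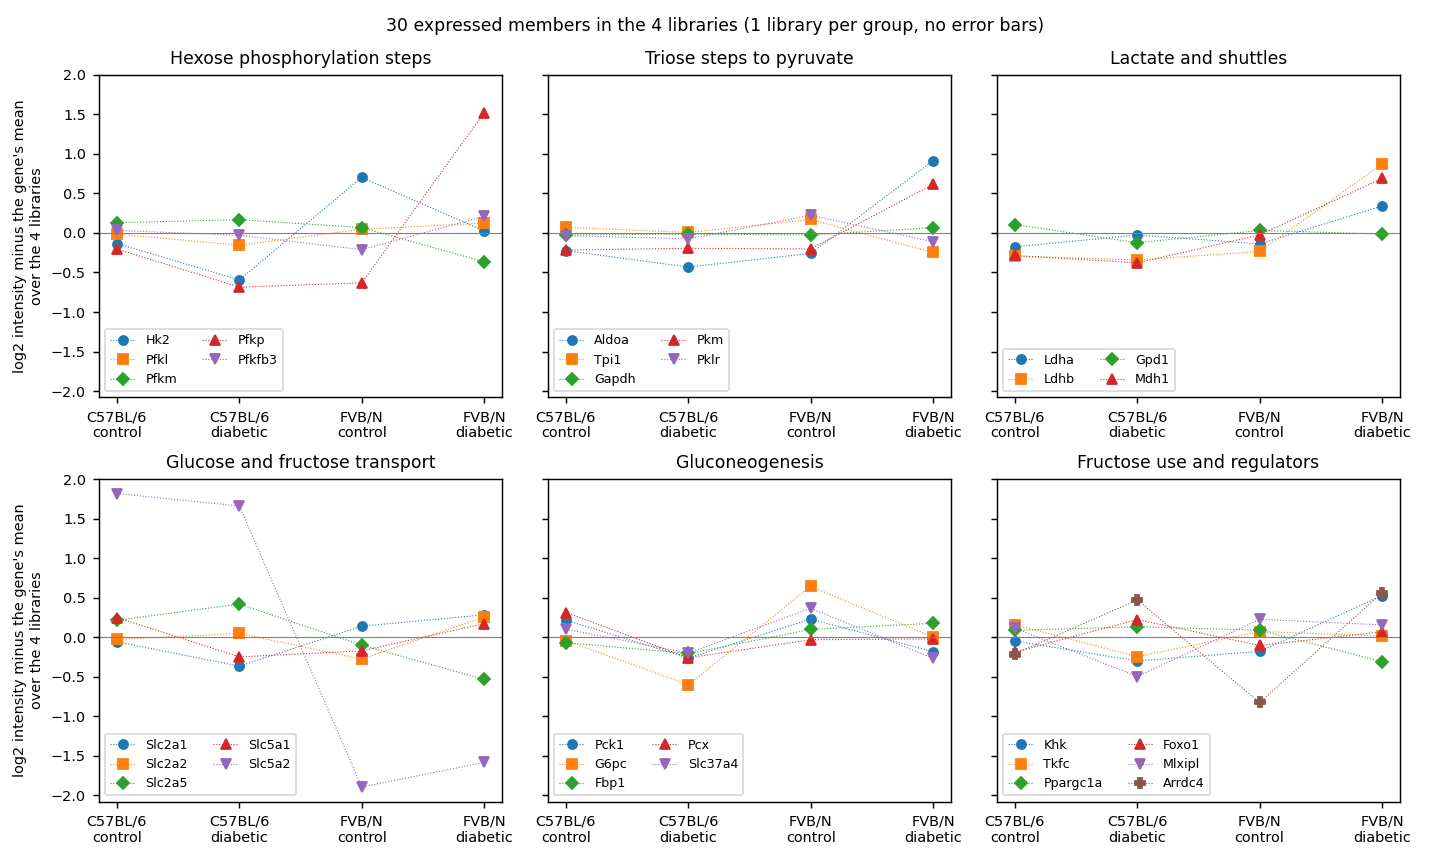
Log2 intensity of each of the 30 expressed members minus its own mean over the 4 libraries (y axis), by library (x axis) and role; each point is 1 library, and dotted lines join the points of a gene. Pfkp, Aldoa, Pkm, Ldhb and Mdh1 are highest in the FVB/N diabetic library, and Slc5a2 on its brightest probe separates the strains.

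Lactate dehydrogenase B, the heart form that favours lactate use, followed Aldoa. Ldhb measured 13.00, 12.95, 13.06 and 14.16 in C57BL/6 control, C57BL/6 diabetic, FVB/N control and FVB/N diabetic. The FVB/N diabetic library was 1.11 above control, or 2.15-fold, and the other libraries lay close together. Ldha, the muscle form, measured 11.67, 11.82, 11.70 and 12.18, with differences of 0.15 in C57BL/6 and 0.48 in FVB/N. The latter was about as large as the single-probe spread. Mdh1, cytosolic malate dehydrogenase of the malate-aspartate shuttle, was higher by 0.71 in FVB/N on its brightest probe but stood at -0.35 on its other probe, and the mean of both gave 0.18. Its call therefore rests on 1 probe. Gpd1, the cytosolic glycerol 3-phosphate dehydrogenase, stayed between 14.14 and 14.37.

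Of the 5 expressed gluconeogenic members, 0 reached 1.5-fold with diabetes in C57BL/6, against a background of 6.14% higher and 6.35% lower. In FVB/N 2 of the 5, G6pc and Slc37a4, were lower, against a background of 13.9%. The C57BL/6 differences ran from -0.57 to -0.14, with a median of -0.48, against 0.01 for all expressed genes. In FVB/N they ran from -0.64 to 0.08, with a median of -0.41, against -0.10 for all. G6pc, the catalytic subunit of glucose 6-phosphatase, which releases free glucose, measured 13.62 and 13.06 in C57BL/6 control and diabetic and 14.30 and 13.66 in FVB/N control and diabetic. Its diabetes differences were -0.56 in C57BL/6 and -0.64 in FVB/N, on either side of the threshold, and which strain passed it depended on the scaling. In C57BL/6 G6pc passed it after quantile normalization, at -0.59, and after lowess centring, at -0.60, and in FVB/N it was short of it after lowess centring. FVB/N minus C57BL/6 was 0.69 in controls and 0.60 in diabetics. Both FVB/N values lay above both C57BL/6 values. Slc37a4, which carries glucose 6-phosphate to that enzyme in the endoplasmic reticulum, measured 12.33, 12.03, 12.59 and 11.96, with differences of -0.30 in C57BL/6 and -0.63 in FVB/N, the latter lost as a call after lowess centring. Both diabetic values were below both control values. The 10 other expressed genes listed for gluconeogenesis had median differences of -0.09 in C57BL/6 and 0.40 in FVB/N.

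Pck1, cytosolic phosphoenolpyruvate carboxykinase, measured 13.27, 12.80, 13.29 and 12.88, so the strains' controls differed by 0.01 and the diabetic differences were -0.48 and -0.41. Pcx, pyruvate carboxylase, measured 8.23 and 7.66 in C57BL/6, a difference of -0.57, and 7.89 and 7.90 in FVB/N. Fbp1, fructose 1,6-bisphosphatase, lay between 10.77 and 11.16 in all libraries. Differences in C57BL/6 for Pck1, G6pc and Pcx exceeded the single-probe spread of 0.33, and those of Slc37a4 and Fbp1 did not. That spread leaves out variation between kidneys, so it does not show which of these differences would recur. Proximal tubule markers of the S1 and S2 segments, 7 of 9 expressed and Slc5a2 among them, had median differences of -0.22 in C57BL/6 and -0.11 in FVB/N. Past 1.5-fold in C57BL/6 were Hnf4a, a factor that drives proximal tubule genes, at -0.64, and the creatine enzyme Gatm at 1.09. Past it in FVB/N were the bicarbonate carrier Slc4a4 at 1.13 and the lactate carrier Slc5a12 at 0.71, with 0 of 7 lower, against 13.9% of all expressed genes. The other Slc4a4 probes gave 0.07 and, below the minimum on average, -0.27 in FVB/N. Of 6 listed markers of the S3 segment, the last part of the proximal tubule, 4 were expressed, and their median difference was -0.90 in FVB/N, against -0.11 in C57BL/6. Their mean log2 level was 9.01 and 8.95 in C57BL/6 control and diabetic and 9.26 and 8.37 in FVB/N control and diabetic. The organic anion carrier Slc22a7 stood at -1.16 and -1.22, Cyp7b1 at 1.13 and -0.17, Kynu at -0.23 and -0.58, and the amino acid carrier Slc7a12 at 0.01 and -1.56, C57BL/6 before FVB/N. Cyp7b1 is dim and reached the expression minimum only through the C57BL/6 diabetic library. With low values raised to the minimum its differences were 0.82 and -0.13. The part of either segment in the gluconeogenic differences was not tested.

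Among membrane carriers, no member reached 1.5-fold with diabetes in either strain on its brightest probe. SGLT2, Slc5a2, reached it on a dimmer probe. Its brightest probe measured 11.89 and 11.73 in C57BL/6 control and diabetic but 8.18 and 8.49 in FVB/N control and diabetic. Between controls the FVB/N minus C57BL/6 difference was -3.71, a 13.1-fold gap that ranked 10 from the bottom of 9201 genes. The other probe, annotated to the same RefSeq transcript, showed no such gap: it measured 7.10, 6.62, 7.39 and 8.44, with FVB/N 0.29 above C57BL/6 in controls. On this probe the FVB/N diabetic library was 1.05 above its control, where the brightest probe gave 0.31, and the C57BL/6 difference was -0.48. Other carriers of the early proximal tubule did not show a gap of this size between controls, with Slc34a1 at -0.06, the organic anion carrier Slc22a6 at -0.11 and the lactate carrier Slc5a12 at 1.09. The strain difference of Slc5a2 was thus seen on 1 of its 2 probes, and the bases under these probes in FVB/N were not analysed here.

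SGLT1, Slc5a1, measured 9.43 and 8.94 in C57BL/6 and 9.01 and 9.36 in FVB/N, control before diabetic. The diabetes differences, -0.50 and 0.34, were 0.84 apart. The single-probe spread of such a difference of differences was 0.58. GLUT2, Slc2a2, measured 6.51 and 6.58 in C57BL/6 and 6.26 and 6.79 in FVB/N, and its 2 further probes, below the minimum on average, had FVB/N differences of 0.26 and 0.99. GLUT1, Slc2a1, the carrier of basal uptake, measured 10.31 and 10.00 in C57BL/6 and 10.50 and 10.65 in FVB/N. GLUT5, Slc2a5, the fructose carrier, measured 10.34 and 10.55 in C57BL/6 and 10.03 and 9.59 in FVB/N. Its diabetes differences were 0.21 in C57BL/6 and -0.43 in FVB/N, both within the single-probe spread, and between the diabetic libraries FVB/N minus C57BL/6 was -0.95.

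**Figure D3:**
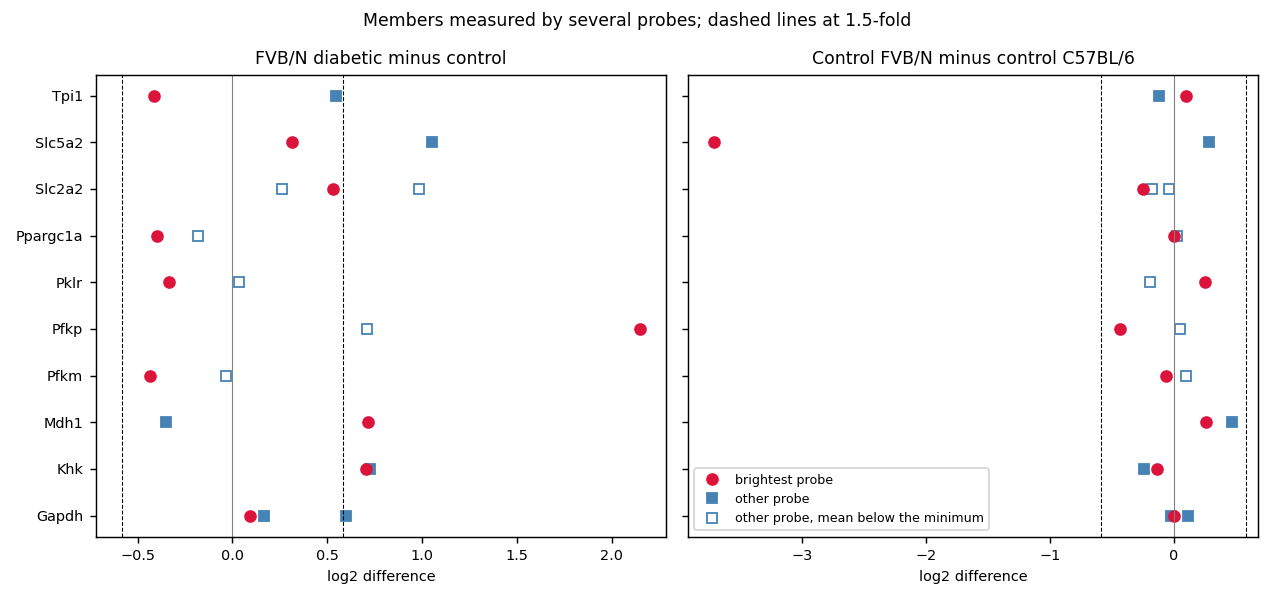
Log2 differences of every probe of the 10 members with several probes, for FVB/N diabetic minus control (left) and control FVB/N minus control C57BL/6 (right); circles are the brightest probe, squares the others, open squares those with a mean below the expression minimum, and dashed lines mark 1.5-fold. Both Khk probes lie at 0.71 and 0.72 on the left, Mdh1 and Tpi1 probes lie on opposite sides of 0 there, and the Slc5a2 probes lie at -3.71 and 0.29 on the right.

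Khk, the entry enzyme of fructose use, was the member whose 2 expressed probes gave the closest match in FVB/N. The brighter measured 12.76 and 12.51 in C57BL/6 and 12.63 and 13.34 in FVB/N, control before diabetic. The other measured 10.89 and 10.74 in C57BL/6 and 10.65 and 11.37 in FVB/N. Their FVB/N differences were 0.71 and 0.72, and in C57BL/6 both were slightly below 0, at -0.25 and -0.15. Tkfc, which phosphorylates the glyceraldehyde made from fructose, measured 9.50, 9.10, 9.42 and 9.36, with differences of -0.41 in C57BL/6 and -0.06 in FVB/N.

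Arrdc4, an arrestin that, like Txnip, restrains glucose uptake, was the 1 of 30 members at least 1.5-fold higher in both strains, against 1.21% of all expressed genes. It measured 7.70 and 8.38 in C57BL/6 and 7.09 and 8.47 in FVB/N, control before diabetic. Both diabetic values were above both control values, with differences of 0.68 and 1.39. The FVB/N minus C57BL/6 difference was -0.62 in controls, while the diabetic libraries were 0.09 apart. No member was at least 1.5-fold lower in both strains, against 1.25% of all expressed genes. Mlxipl, which encodes ChREBP, measured 6.78 and 6.17 in C57BL/6 and 6.89 and 6.82 in FVB/N, so its values did not follow those of Arrdc4. Foxo1, which turns on gluconeogenic genes when insulin is low, lay between 6.70 and 7.11. Its diabetes difference was 0.41 in C57BL/6, short of 1.5-fold but above the single-probe spread, and 0.17 in FVB/N, within it. Ppargc1a, a coactivator of gluconeogenesis and mitochondrial genes, was flat in the first 3 libraries, at 9.43 to 9.47, and 9.04 in the FVB/N diabetic library.

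Setting the strains against each other, controls differed at 1.5-fold for few members. Hk2 and G6pc were higher in FVB/N controls, 2 of 30 against 6.29% of all expressed genes, and Slc5a2 and Arrdc4 lower, 2 of 30 against 6.75%. Between the diabetic libraries 10 members were higher in FVB/N, 33.3% against a background of 14.7%: Hk2, Pfkp, Aldoa, Pkm, Ldhb, Mdh1, Slc2a1, G6pc, Khk and Mlxipl. Of these, Pfkp carries the limit given above, and without it 9 of 29 were higher, against 14.5%. Hk2 was lost when low values were raised to the minimum, and Mdh1 with the mean of probes, at 0.49. The 2 lower were Slc5a2 and Slc2a5, 6.67% against 16.9%. When the C57BL/6 diabetes difference was subtracted from that of FVB/N, 8 members were at least 1.5-fold above 0, against 15.5% of all expressed genes. They were Pfkp, Aldoa, Pkm, Ldhb, Mdh1, Slc5a1, Khk and Arrdc4, or 7 of 29 without Pfkp, against 14.9%. Slc2a5 was the 1 member below, against 18.6%, at -0.64 or, after lowess centring, -0.54, short of the threshold. These comparisons share libraries with the diabetes comparisons and are not separate evidence. Of the 30 members, 16 had their lowest value in the C57BL/6 diabetic library, against 22.9% of all expressed genes. The FVB/N diabetic library held the highest value of 14 members, against 28.1%, and the lowest of 6, against 39.7%. Pfkp is among the 14 and reached the expression minimum only through that library, and this count was not redone without it.

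Beside the FVB/N values stand other shifts in the same library, some of them also seen in C57BL/6. Markers of collecting duct principal cells, a distal cell type, were at least 1.5-fold higher for 5 of 8 genes, against 12.4% of all expressed genes, and the list's mean log2 level was 8.15 in the FVB/N control and 9.27 in the diabetic library, against 8.46 and 8.48 in C57BL/6. None of the 8 was below the minimum on average. Among transcripts known to be higher in male mouse kidneys, 6 were listed and 4 expressed, of which 3 were at least 1.5-fold higher and Kap lower, at -2.08. Of the 3, Ugt8a reached the expression minimum only through the FVB/N diabetic library, where it is high. Of 5 transcripts listed as higher in female kidneys, 4 were expressed, of which Gsta4 at 0.89 and Cyp4a14 at 0.60 were higher and Abcc3 at -0.64 lower. The background for these FVB/N counts was 12.4% higher and 13.9% lower. In C57BL/6 1 of 8 principal cell genes, Elf5 at 0.79, was higher, against 6.14%. There 2 of 4 male transcripts were higher, Cyp2d9 at 0.62 and Ugt8a at 0.84. With low values raised to the minimum Ugt8a stood at 0.43 in C57BL/6. Of the 4 female transcripts 0 were higher in C57BL/6 and Abcc3 was lower, at -2.72, against 6.35%. The part of these shifts in the glycolytic differences was not tested.

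Other genes of the same pathways, 114 in a list without the members, had 96 with a probe and 70 expressed. In FVB/N 14 of the 70 were at least 1.5-fold higher with diabetes, 20.0% against the background of 12.4%, and 4 lower, 5.71% against 13.9%. In C57BL/6 2 were higher, 2.86% against 6.14%, and 1 lower, 1.43% against 6.35%. Among those counted as higher, Sirt1 in FVB/N reached the expression minimum only through the FVB/N diabetic library, where it is high. Eno3, counted in both strains, fell short of the minimum without either diabetic library. The counts were not redone without such genes, so the 20.0% holds genes that the filter let in where they are high. The pyruvate dehydrogenase kinases, which restrain the oxidation of pyruvate, were among the higher ones in FVB/N. Pdk4 measured 8.31 and 8.37 in C57BL/6 and 7.72 and 9.01 in FVB/N, a difference of 1.29 in FVB/N. Pdk2 measured 7.37 and 7.08 in C57BL/6 and 7.58 and 8.64 in FVB/N, a difference of 1.07, and Pdk1 differed by 0.60. Pdk3 did not share this, at -0.30.

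In glycolysis the brain aldolase Aldoc was 1.22 higher in FVB/N and, at 0.59, just past the threshold in C57BL/6, with 8.23 and 8.81 in C57BL/6 and 8.49 and 9.71 in FVB/N. Its other probe, below the minimum on average, gave 0.24 in C57BL/6 and 0.54 in FVB/N, both short of the threshold. Eno3, muscle enolase, was higher in both, at 0.95 and 0.63, from control values below the minimum. With those raised to it the Eno3 differences were 0.26 in C57BL/6, short of the threshold, and 0.61 in FVB/N. Galm, which interconverts the anomers of hexoses, was higher at 0.73 in FVB/N. Lower in FVB/N were Pfkfb2, another maker of the phosphofructokinase activator, at -0.94 (its other probe gave -0.20), the hexokinase relative Hkdc1 at -0.70 and the mitochondrial glycerol 3-phosphate dehydrogenase Gpd2 at -0.63. Gpd2 also stood at -0.41 in C57BL/6. The ubiquitous glucose 6-phosphatase G6pc3 was 1.11 higher in FVB/N, opposite to G6pc, and its other probe gave 1.18.

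Further genes past the threshold in FVB/N belong to sugar side routes and regulators. Dcxr, which acts on xylulose in the uronate route, was 1.20 higher. Slc45a3, a sugar carrier of the same superfamily as the GLUTs, was 1.41 higher, and Ugp2, which makes UDP-glucose for glycogen, 0.86. Gpt, alanine aminotransferase, which feeds alanine into pyruvate, was 0.80 higher. The regulators Klf15, a factor of gluconeogenesis and amino acid use, Sirt1, a deacetylase, and Mlx, the partner of ChREBP, stood at 1.18, 0.89 and 0.68, Sirt1 from control values below the minimum. The other Mlx probe, below the minimum on average, gave -0.25. Gfpt2, of the hexosamine route, was lower at -0.63. In C57BL/6 these genes from Dcxr to Gfpt2 did not reach 1.5-fold, and Hnf4a, at -0.64, was the 1 listed gene lower there.

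**Figure D4:**
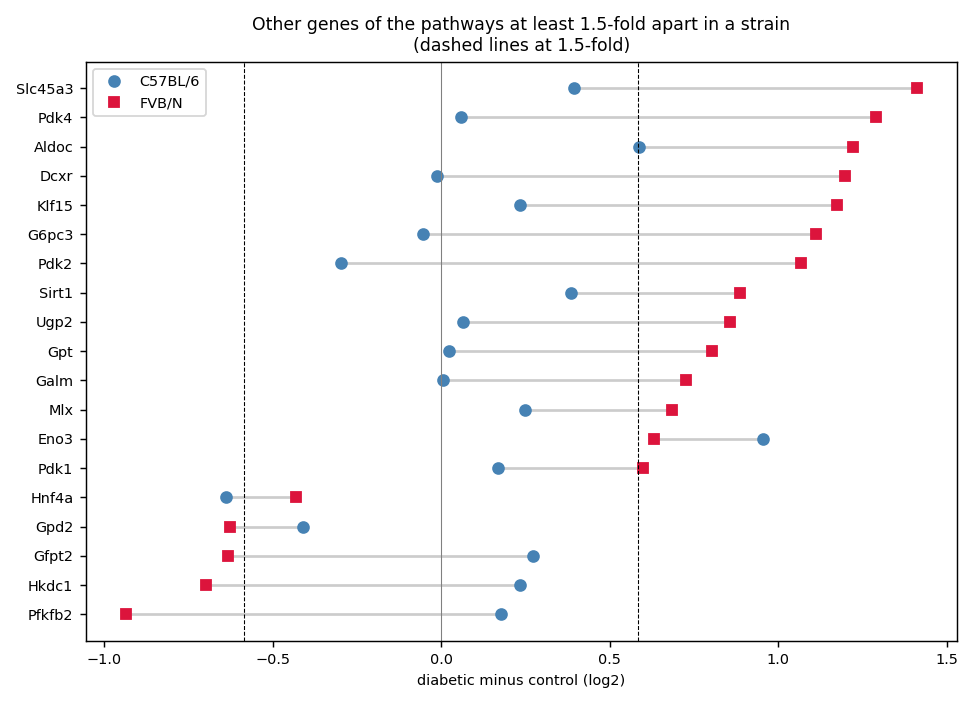
Diabetic minus control difference in log2 (x axis) of the 19 listed pathway genes outside the members that were at least 1.5-fold apart in a strain, with C57BL/6 as circles and FVB/N as squares, 1 library per group, and dashed lines at 1.5-fold. Most of these genes lie beyond 1.5-fold in FVB/N, with Slc45a3 at 1.41 highest and Pfkfb2 at -0.94 lowest.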

How the data were processed

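The authors deposited 1 table of log2 intensities of Illumina arrays, 1 column per group; the unit is read from the values, while normalization, background correction and software are not stated there. Per the labels' protocols, Trizol-extracted total RNA was cleaned on columns, treated with DNase and turned into biotinylated cRNA stained with streptavidin-Cy3. At any rank the libraries differed by a median of 0.0029, as after quantile normalization. Detection calls were not used here, so low values are described as near background, and the small number of arrays limits precision.

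The values were used as deposited. Of 24613 probes, 20984 had 1 gene symbol in the platform annotation, 1 had several and 3628 had none. A gene's value is that of its brightest probe, by the mean of the 4 libraries, and genes with a mean of at least 5.49 were kept. Differences were counted from 1.5-fold, beside the same count over all kept genes. Named are members past 1.5-fold in a diabetes comparison or in both strain comparisons, members that a role group needs, and listed pathway genes past 1.5-fold. The counting code was tested on simulated data, with noise below the single-probe spread and shifts above the threshold in bright genes. That test checks the code, not calls near 1.5-fold or of dim genes. Members, lists and rules were chosen with earlier results of these data known. The alternatives were quantile normalization, median centring, lowess centring on intensity with a span of 0.3, no minimum, a minimum at percentile 75, the mean of a gene's probes, values floored at the minimum and, added after seeing the data, a minimum to be reached without any one library. Python 3.11.15, pandas 2.3.3 and statsmodels 0.14.6 were used.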

Additional observations from a re-analysis of the deposited data

Results flagged for a closer look

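Members' uncounted probes, with means that reach the minimum, held 2 values past 1.5-fold where the brightest probe of the gene did not. The dimmer Slc5a2 probe was 1.05 log2 higher in the FVB/N diabetic library than in its control, against 0.31 on the brightest probe. A Gapdh probe of intermediate brightness was 0.60 higher, against 0.09 on the brightest. No member was at least 1.5-fold higher in one strain and lower in the other.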

How the results depend on the processing

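No paired analysis was possible because each group has 1 library. Over 8 alternatives, 1 of them added after seeing the data, 73 of 80 counts of members stayed within 1.5 times the reported count and 7 did not. The count of members lower in C57BL/6 was 2 after quantile normalization and after lowess centring and 0 under the stricter minimum, in place of 1. The count lower in FVB/N was 1 after lowess centring, in place of 3, as G6pc and Slc37a4 fell short. The count below 0 for the difference of diabetes effects was 0 after lowess centring and 2 without a minimum, in place of 1, and the count higher in FVB/N controls was 1 under the stricter minimum, in place of 2. Settings of the minimum change how many members are counted, 23 under the stricter one and 33 without one; for the others the cause was not tested. The FVB/N count of higher members was 6 of 23 under the stricter minimum, against 11.8% of all genes kept, and 8 of 30 after lowess centring, against 14.9%. Of 184 differences of named members, 181 moved by less than the single-probe spread and 0 changed sign past 1.5-fold. Many of them could not move, so these counts do not measure robustness. Settings that only change the minimum leave a difference as it was, and members below the minimum are left out of the 184. The mean of probes alters only members with several probes, and flooring only those with a value below the minimum. The mean of probes moved 3: Pfkp to -0.07 in C57BL/6 and 1.43 in FVB/N, and Mdh1 to 0.18 in FVB/N. With 1 array per group and dim probes near background, Pfkp, Hk2 and Eno3 are least certain in size.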

Other observations

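Targets of the hypoxia-inducible factor, which also drives glycolytic genes, were listed as 11 genes, of which 9 were expressed. In FVB/N 2 of 9 were at least 1.5-fold higher with diabetes, against 12.4% of all expressed genes. Of these, Bnip3 reached the expression minimum only through the FVB/N diabetic library, where it is high, and the count was not redone without it. The prolyl hydroxylase Egln1 stood at 1.21 on its brightest probe and at 0.15 and 0.25 on its others, and the mitophagy receptor Bnip3 at 0.60, or 0.40 with its low control value raised to the minimum. Ndrg1 was not counted, at 0.25 on its brightest probe, though its other probe gave 0.98. The list's median was 0.11 in each strain. In C57BL/6 1 was higher, against 6.14%, Ankrd37 at 0.68. Vegfa, the endothelial growth factor, stood at 0.01 in C57BL/6 and -0.46 in FVB/N, and adrenomedullin, Adm, at 0.10 and 0.32.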
